A study of Mus musculus with 16 samples.

Results

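Lung endothelial cells from mice labelled Erg and Fli1 double knockout were compared with those from mice labelled wild type, in 6 RNA-seq libraries chosen by the tissue and genotype of their labels out of 16 in the series. The double knockout group (KO) and the wild type group (control) had 3 libraries each. Both groups were taken at day 10 after tamoxifen, which was given to induce the deletion, and the series applied the same design to liver (3 libraries a group) and heart (2 a group). Before dissection, vessels had been labelled by injecting mice with an antibody to VE-cadherin. Cells were then freed with collagenase and dispase, and sorted as live CD45- CD31+ VE-cadherin+ cells before poly(A) RNA was sequenced. The sources used here do not give the Cre driver, the deleted exons, the age of the animals or the number of animals behind a library. The p-values thus measure the spread between libraries of a group, which may be technical in part. That spread was estimated over all 16 libraries, so lung p-values also reflect spread within the liver and heart groups.

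ERG and FLI1 are transcription factors of the ETS family, which bind DNA around a GGAA core. In endothelium they are known to hold up genes of cell identity, junctions and quiescence and to keep inflammatory genes low. Lung endothelium is mostly capillary, made of general capillary cells and of aerocytes, the thin cells opposite the alveolar epithelium where gas is exchanged, and it carries MHC class II molecules more than many other vascular beds.

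Total counts ran from 31837780 to 41132076 per library in KO and from 35955884 to 40468860 in control. Library 2 of each group expressed Y-linked genes and the other 4 did not, so each group holds at least 2 animals and the sexes are matched in number. Libraries correlated at 0.971 to 0.978 within KO, 0.979 to 0.986 within control and 0.961 to 0.969 between the groups (Pearson, log CPM). The first principal component took 42.1% of the variance and separated the groups, and the second (19.7%) set KO libraries 2 and 3 apart from each other. Defining endothelial genes were read at high levels in all 6 libraries. Cdh5 (VE-cadherin) had 3037, 3337 and 2325 CPM in KO and 3258, 3467 and 3777 CPM in control, and Pecam1 (CD31) had 2089, 1679 and 1391 CPM in KO and 2588, 2543 and 2646 CPM in control. Neither passed the test (adjusted p = 0.412 and 0.0575), though Pecam1 lay lower in every KO library.

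Of 19646 genes tested, 1662 differed between KO and control (8.46%), of which 854 were higher (4.35%) and 808 lower (4.11%) by edgeR's quasi-likelihood test at an adjusted p of 0.05. Changes of at least 2-fold made up 423 of the higher (2.15% of genes tested) and 428 of the lower calls (2.18%), and the median log2 fold change of all genes tested was −0.02. The calls were fewer with any 1 lung library left out, which also lowers the number of libraries. They numbered 1033, 988 and 917 without control library 1, 2 and 3, and 1479, 1240 and 1161 without KO library 1, 2 and 3. Genes called "rose" or "fell" here passed that test. Levels are in CPM, read counts divided by effective library size and scaled up, and are compared within a gene.

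**Figure D1:**
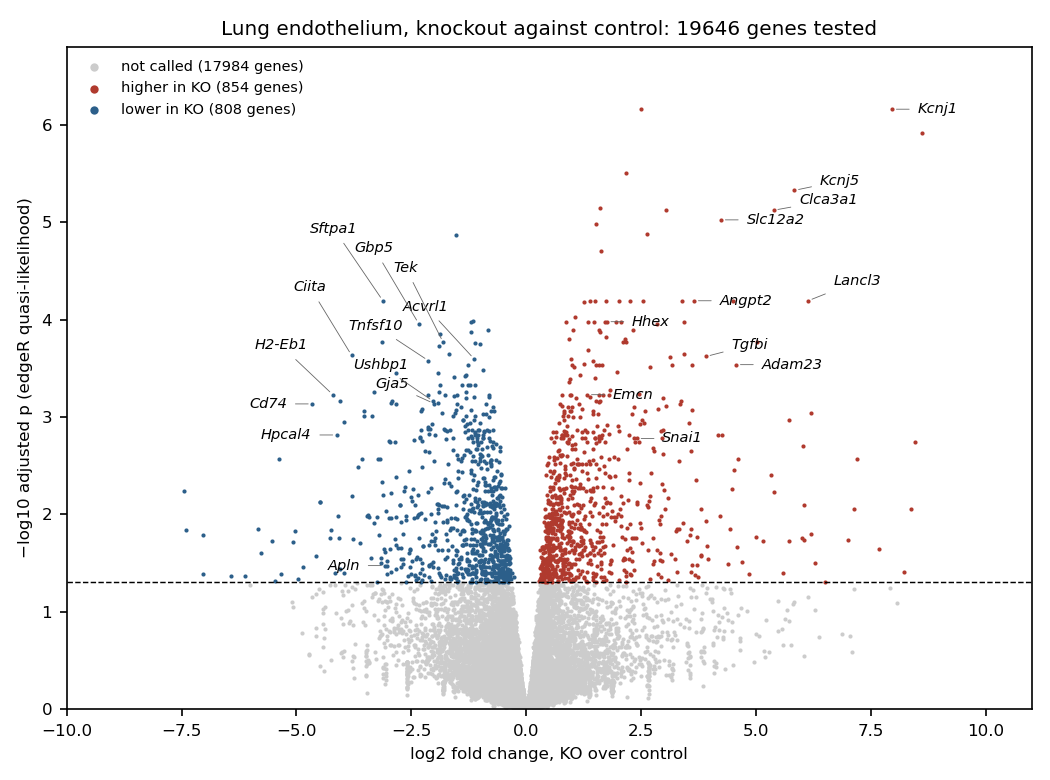
Each point is 1 of the 19646 genes tested, with the log2 fold change of KO over control on the x axis and −log10 of the adjusted p on the y axis. The dashed line marks an adjusted p of 0.05, above which 854 genes lie to the right and 808 to the left. Labelled genes include Kcnj1 at a log2 fold change of 7.96 and Cd74 at −4.65.

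The targeted genes were still read in KO. Erg (chromosome 16, 95359169 to 95586593, minus strand, GRCm38) had 224, 166 and 164 CPM in KO and 263, 259 and 276 CPM in control (log2 fold change −0.52, SE 0.13, adjusted p = 0.0231). Fli1 (chromosome 9, 32422204 to 32542861, minus strand) had 136, 98.2 and 138 CPM in KO and 76.6, 77.9 and 76.6 CPM in control (log2 fold change 0.69, SE 0.15, adjusted p = 0.0131). The KO and control libraries did not overlap for either gene, and Erg was lower while Fli1 was higher. Reads from outside the deleted part count towards both genes, so these values do not check the deletion. Without control library 3 or KO library 3 the call for Fli1 was lost (largest adjusted p 0.0533) and without control library 1, 2 or 3 or KO library 2 or 3 that for Erg (0.0937).

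Of 26 listed ETS family members, Erg and Fli1 included, 25 were tested. Of these, 3 rose and 3 fell, against 4.35% and 4.11% of all genes tested. Elf4, an ETS factor of quiescent and immune cells, had 55, 52.3 and 68.1 CPM in KO and 18.6, 36.5 and 34.5 CPM in control (log2 fold change 0.97, SE 0.21, adjusted p = 0.0102). Elk3, which acts as a repressor in vessels, had 291, 240 and 214 CPM in KO and 394, 350 and 396 CPM in control (log2 fold change −0.61, SE 0.13, adjusted p = 0.0113). Etv4 rose and Elf5, an epithelial member, fell, both at levels under 4 CPM. Ets1 had 770, 679 and 704 CPM in KO and 899, 653 and 777 CPM in control and did not pass (adjusted p = 0.709), with overlapping groups. The count of members that rose was 1 without control library 3 or KO library 3, and that of members that fell was 1 without control library 1, 2 or 3 or KO library 2 and 0 without KO library 3. Without KO library 3 the call for Elk3 was lost (largest adjusted p 0.0508), without control library 3 or KO library 2 or 3 that for Etv4 (0.0814) and without any 1 library that for Elf5 (0.201).

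Genes shared by endothelial cells of most vessels fell in KO. Of 40 pan-endothelial genes, 21 fell and 2 rose, against 4.11% and 4.35% of all genes tested, and the median log2 fold change was −0.75. The rises were Emcn and Tal1, and the call for Tal1 was lost without control library 2 or 3 or KO library 1 or 3 (largest adjusted p 0.184), which left 1 rise. The falls included Tek (TIE2), the angiopoietin receptor, and the related receptor Tie1. Rasip1, which is needed for the vessel lumen and for Rap1 signalling at junctions, Ushbp1, Cyyr1 and the proton-sensing receptor Gpr4 also fell.

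Tek had 593, 299 and 342 CPM in KO and 1447, 1342 and 1533 CPM in control (log2 fold change −1.81, SE 0.20, adjusted p = 0.000171). Tie1 had 917, 813 and 596 CPM in KO and 1572, 1573 and 1629 CPM in control (log2 fold change −1.04, SE 0.16, adjusted p = 0.00137). Ushbp1 had 285, 192 and 164 CPM in KO and 940, 835 and 833 CPM in control (log2 fold change −2.03, SE 0.28, adjusted p = 0.00069). For all 3 genes the highest KO library, which was library 1 each time, lay well under the lowest control. Rasip1 had 205, 186 and 145 CPM in KO and 448, 414 and 397 CPM in control (log2 fold change −1.23, SE 0.16, adjusted p = 0.000465). Cyyr1 had 372, 282 and 262 CPM in KO and 825, 684 and 812 CPM in control (log2 fold change −1.34, SE 0.17, adjusted p = 0.000376). Gpr4 had 23.6, 19.5 and 27 CPM in KO and 56.7, 48.1 and 47.9 CPM in control (log2 fold change −1.12, SE 0.13, adjusted p = 0.000173). These groups did not overlap either. Cd93, a C-type lectin-like receptor of endothelium, had 797, 614 and 1039 CPM in KO and 2258, 2286 and 2516 CPM in control (log2 fold change −1.53, SE 0.30, adjusted p = 0.00595), and Stab1, a scavenger receptor, had 280, 130 and 162 CPM in KO and 505, 605 and 632 CPM in control (log2 fold change −1.60, SE 0.26, adjusted p = 0.00164). In such bulk libraries, fewer cells of a type and less RNA per cell cannot be told apart.

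The bases upstream of the 6 pan-endothelial genes with the smallest adjusted p among those with an entry are shown because ETS factors bind GGAA cores in such promoters. They are the 250 bases before the start site on the gene's strand (RefSeq, GRCm38.p6), with capitals for each match to the ETS core sequences AGGAAG or CGGAAG on either strand.

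Tek (ENSMUSG00000006386, chr4:94739039-94739288, plus strand): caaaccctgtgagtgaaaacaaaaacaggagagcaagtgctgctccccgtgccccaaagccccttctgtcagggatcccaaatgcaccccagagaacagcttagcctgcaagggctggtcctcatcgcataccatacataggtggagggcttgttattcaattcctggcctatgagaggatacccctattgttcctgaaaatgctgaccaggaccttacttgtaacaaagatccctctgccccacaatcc

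Gpr4 (ENSMUSG00000044317, chr7:19212288-19212537, plus strand): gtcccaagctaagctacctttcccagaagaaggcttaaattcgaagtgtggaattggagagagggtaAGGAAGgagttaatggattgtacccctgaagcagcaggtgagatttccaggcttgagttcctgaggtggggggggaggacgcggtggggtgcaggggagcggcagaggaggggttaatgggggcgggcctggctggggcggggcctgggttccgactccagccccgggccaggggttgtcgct

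Cyyr1 (ENSMUSG00000041134, chr16:85550374-85550623, minus strand): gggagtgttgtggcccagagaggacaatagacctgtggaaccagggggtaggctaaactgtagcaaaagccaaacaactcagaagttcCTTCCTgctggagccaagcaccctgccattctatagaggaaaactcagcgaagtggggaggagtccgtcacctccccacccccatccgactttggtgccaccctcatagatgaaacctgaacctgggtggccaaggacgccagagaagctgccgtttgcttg

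Rasip1 (ENSMUSG00000044562, chr7:45627287-45627536, plus strand): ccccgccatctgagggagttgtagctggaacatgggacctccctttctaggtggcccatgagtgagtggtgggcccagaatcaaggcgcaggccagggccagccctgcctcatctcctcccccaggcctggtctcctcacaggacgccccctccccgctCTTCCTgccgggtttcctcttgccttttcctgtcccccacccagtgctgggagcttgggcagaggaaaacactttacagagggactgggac

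Ushbp1 (ENSMUSG00000034911, chr8:71395802-71396051, minus strand): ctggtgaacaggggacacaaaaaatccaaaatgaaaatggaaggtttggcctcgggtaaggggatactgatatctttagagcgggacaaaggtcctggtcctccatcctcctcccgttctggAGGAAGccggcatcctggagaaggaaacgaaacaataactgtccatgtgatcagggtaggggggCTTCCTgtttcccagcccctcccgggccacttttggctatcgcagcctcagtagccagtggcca

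Tie1 (ENSMUSG00000033191, chr4:118489850-118490099, minus strand): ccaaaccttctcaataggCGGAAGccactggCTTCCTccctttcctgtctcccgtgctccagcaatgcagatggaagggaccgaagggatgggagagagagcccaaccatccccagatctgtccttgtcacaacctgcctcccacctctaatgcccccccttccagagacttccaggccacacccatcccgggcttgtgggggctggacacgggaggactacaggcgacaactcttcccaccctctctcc

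Of the 21 pan-endothelial genes that fell, 13 had a promoter entry, and 10 of these held AGGAAG or CGGAAG. Over 13029 tested genes with an entry, 44.7% held 1 of both, with 44.3% among the 661 that rose and 42.8% among the 570 that fell. AGGAAG alone was in 28.7% of all these promoters and CGGAAG in 22.2%. In Tie1 the matches began 219 and 232 bases before the start site, and in Ushbp1 128 and 64 bases before it. No match was in the Tek window. A match is a description of the letters and not a site.

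Not every endothelial gene fell. Emcn (endomucin), a sialomucin of capillaries and veins that limits leukocyte adhesion, had 373, 569 and 399 CPM in KO and 190, 171 and 173 CPM in control (log2 fold change 1.33, SE 0.18, adjusted p = 0.00059), with every KO library about 2-fold or more above the controls. Kdr (VEGFR2) had 1282, 1445 and 1236 CPM in KO and 1072, 1591 and 1381 CPM in control, Vwf (von Willebrand factor) had 2929, 1507 and 1418 CPM in KO and 2764, 2569 and 2883 CPM in control, Cldn5 (claudin-5) had 2262, 2792 and 1741 CPM in KO and 3605, 3072 and 2439 CPM in control and Vcam1 had 101, 60.1 and 182 CPM in KO and 107, 84.7 and 93.4 CPM in control. These 4 overlapped between the groups and did not pass (adjusted p = 0.962, 0.615, 0.175 and 0.774). Nos3, the endothelial nitric oxide synthase, had 49.2, 40 and 55.5 CPM in KO and 89.6, 69.8 and 89.4 CPM in control (log2 fold change −0.78, SE 0.19, adjusted p = 0.0201). Procr (the endothelial protein C receptor) had 31.4, 21.3 and 39 CPM in KO and 11.4, 7.04 and 6.89 CPM in control, without overlap but above the threshold (adjusted p = 0.0798). Without control library 1 or 3 or KO library 2 the call for Nos3 was lost (largest adjusted p 0.0795).

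**Figure D2:**
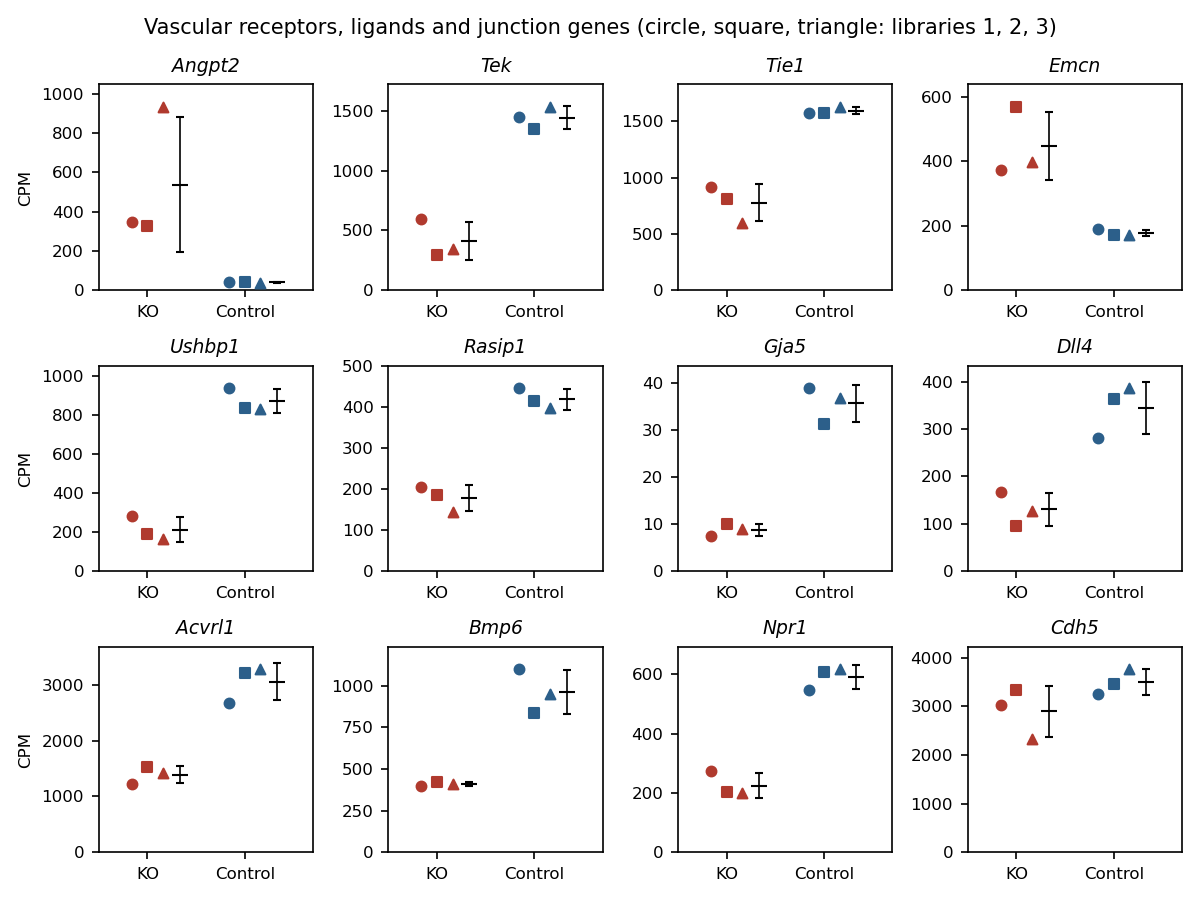
CPM of 12 vascular genes in each KO (red) and control (blue) library, with the mean ± SD (n = 3 a group) beside the points. Angpt2 and Emcn lie higher in every KO library, Cdh5 overlaps, and the other 9 lie lower in every KO library.

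Within the angiopoietin and TIE system, the ligand and its receptors moved in opposite directions. Angpt2 (angiopoietin-2), a TIE2 ligand that loosens vessels and often opposes angiopoietin-1, had 349, 328 and 934 CPM in KO and 43.7, 44.4 and 39.9 CPM in control (log2 fold change 3.65, SE 0.35, adjusted p = 6.4e-05). KO library 3 was more than 2-fold above the other KO libraries, and all 3 were far above the controls. Angpt1, the main TIE2 agonist, had 3.81, 3.44 and 3.59 CPM in KO and 8.14, 7.54 and 5.55 CPM in control. It did not pass (adjusted p = 0.108), though it lay lower in every KO library. Over the angiopoietin and VEGF list, 2 of 17 members rose and 3 fell, against 4.35% and 4.11% of all genes tested. The receptor Flt1 (VEGFR1) had 1094, 955 and 759 CPM in KO and 1097, 1230 and 1271 CPM in control. Flt4 (VEGFR3) had 297, 156 and 205 CPM in KO and 182, 262 and 263 CPM in control. Neither receptor passed, though Flt1 lay lower in every KO library. The count of rises was 1 without control library 3. Adm (adrenomedullin), a peptide that stabilises the endothelial barrier, had 15.7, 13.8 and 19.3 CPM in KO and 9.96, 4.52 and 7.19 CPM in control (log2 fold change 1.17, SE 0.22, adjusted p = 0.0049), while Calcrl, its receptor, had 2311, 2233 and 1811 CPM in KO and 3403, 3330 and 3892 CPM in control (log2 fold change −0.74, SE 0.15, adjusted p = 0.00835).

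A part of the general capillary markers fell. Of 14 general capillary genes, 4 fell and 0 rose, against 4.11% and 4.35% of all genes tested. The median log2 fold change was −0.78. No rise appeared by DESeq2 (0 of 14) or at an unadjusted p under 0.05 (0) either. Sema3c, a secreted semaphorin, had 631, 489 and 262 CPM in KO and 1540, 1281 and 1682 CPM in control (log2 fold change −1.70, SE 0.30, adjusted p = 0.00307). Glp1r (the GLP-1 receptor) had 82.6, 58.7 and 33.4 CPM in KO and 150, 198 and 214 CPM in control (log2 fold change −1.69, SE 0.32, adjusted p = 0.00479). Aplnr, the apelin receptor, had 86.6, 82.7 and 32.5 CPM in KO and 256, 221 and 240 CPM in control (log2 fold change −1.83, SE 0.45, adjusted p = 0.023), and KO library 3 was the lowest for all 3 genes. Cd93, the remaining one of the 4, was instead highest in library 3 among the KO libraries (797, 614 and 1039 CPM). Without control library 1, 2 or 3 or KO library 3 the call for Aplnr was lost (largest adjusted p 0.0773).

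Among 13 aerocyte genes, 2 fell, Apln and Rprml, against 4.11% of all genes tested, and the median was 0.19. Apln (apelin) had 8.78, 13.7 and 12 CPM in KO and 86.5, 122 and 80.8 CPM in control (log2 fold change −3.07, SE 0.82, adjusted p = 0.0336). The other defining aerocyte markers overlapped between the groups. Car4 (carbonic anhydrase 4) had 431, 650 and 577 CPM in KO and 321, 690 and 527 CPM in control, Ednrb (endothelin receptor B) had 551, 778 and 317 CPM in KO and 149, 502 and 362 CPM in control and Prx (periaxin) had 888, 1106 and 870 CPM in KO and 759, 967 and 774 CPM in control, with adjusted p = 0.93, 0.329 and 0.421. Control library 1 was the lowest of the 6 for Car4, Ednrb and Prx. Without any 1 library the call for Apln was lost (largest adjusted p 0.103) and without control library 2 or 3 or KO library 1 or 3 that for Rprml (0.0876). The count of aerocyte falls was 1 without control library 1 or KO library 2 and 0 without any other library.

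Some arterial and Notch genes fell. Of 23 arterial genes, 6 fell and 1 rose (median −0.75), and of 20 Notch pathway genes, 4 fell and 0 rose (median −0.49). Dll4, Notch1 and Notch4 were on both lists. Over all genes tested, 4.11% fell and 4.35% rose. Gja5 (connexin 40), a gap junction protein of arteries, had 7.47, 10 and 9.09 CPM in KO and 39, 31.3 and 36.7 CPM in control (log2 fold change −2.01, SE 0.28, adjusted p = 0.000727). Dll4, the main endothelial Notch ligand, had 167, 96.7 and 128 CPM in KO and 282, 364 and 387 CPM in control (log2 fold change −1.40, SE 0.24, adjusted p = 0.00264). Notch1 had 378, 194 and 271 CPM in KO and 481, 710 and 657 CPM in control (log2 fold change −1.13, SE 0.21, adjusted p = 0.00397). The groups did not overlap for these 3 genes, and control library 1 was the lowest control for Dll4 and Notch1. Mfng, a glycosyltransferase that modifies Notch receptors, had 62.4, 45.2 and 55.5 CPM in KO and 126, 159 and 138 CPM in control (log2 fold change −1.37, SE 0.27, adjusted p = 0.00652). Efna1 (ephrin-A1) is counted with the axon guidance genes below and not among the arterial falls. It had 59.4, 31 and 54.8 CPM in KO and 114, 168 and 200 CPM in control (log2 fold change −1.73, SE 0.27, adjusted p = 0.0014). The Notch targets Hey1 and Hes1 did not pass (adjusted p = 0.2 and 0.381). Hey1 had 132, 107 and 79.5 CPM in KO and 162, 185 and 263 CPM in control, lower in every KO library. Hes1 had 215, 123 and 226 CPM in KO and 152, 124 and 113 CPM in control, with overlap. Of the 20 Notch genes, 0 rose by DESeq2 and 0 at an unadjusted p under 0.05. The arterial gene that rose was Unc5b, with 78.4, 160 and 90.8 CPM in KO and 65.2, 64.9 and 61.2 CPM in control (log2 fold change 0.78, SE 0.22, adjusted p = 0.04). Without control library 1, 2 or 3 or KO library 2 or 3 the call for Notch4 was lost (largest adjusted p 0.165) and without control library 1, 2 or 3 or KO library 2 that for Unc5b (0.141).

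Venous and lymphatic calls were single genes, where 4.35% of all genes tested rose and 4.11% fell. Of 18 venous genes, Nrp2 (neuropilin 2) rose and Ephb4 fell. Of 12 tested lymphatic genes, Prox1, the transcription factor of lymphatic identity, rose, with 3.54, 1.69 and 4.12 CPM in KO and 0.581, 0.693 and 0.613 CPM in control (log2 fold change 2.30, SE 0.54, adjusted p = 0.0176). Ccl21a, a defining lymphatic chemokine, had no read in any of the 6 libraries. Without control library 3 the call for Nrp2 was lost (largest adjusted p 0.0557), without any 1 library that for Ephb4 (0.15) and without control library 1, 2 or 3 or KO library 3 that for Prox1 (0.07). Without KO library 2, 2 venous genes rose.

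TGF-beta and BMP genes moved both ways. Of 38, 3 fell and 3 rose, against 4.11% and 4.35% of all genes tested, with a median log2 fold change of −0.02 and 1 rise without control library 3. Acvrl1 (ALK1), the endothelial BMP9 and BMP10 receptor whose loss in humans causes hereditary haemorrhagic telangiectasia, had 1225, 1531 and 1413 CPM in KO and 2671, 3207 and 3288 CPM in control (log2 fold change −1.14, SE 0.13, adjusted p = 0.000253). Bmp6 had 399, 425 and 412 CPM in KO and 1103, 840 and 951 CPM in control (log2 fold change −1.23, SE 0.21, adjusted p = 0.00228). Ltbp4, which binds latent TGF-beta in the matrix, had 237, 271 and 178 CPM in KO and 813, 725 and 813 CPM in control (log2 fold change −1.78, SE 0.27, adjusted p = 0.00137). Every KO library was under every control for all 3 genes. The co-receptor Eng (endoglin) had 2546, 3169 and 2710 CPM in KO and 3080, 3073 and 3139 CPM in control and overlapped (adjusted p = 0.771).

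Of 31 vascular tone genes, 7 fell and 1 rose, against 4.11% and 4.35% of all genes tested, with a median of −0.43. Npr1, the natriuretic peptide receptor that makes cGMP, had 273, 202 and 200 CPM in KO and 545, 607 and 619 CPM in control (log2 fold change −1.39, SE 0.18, adjusted p = 0.000467). Edn1, the precursor of the vasoconstrictor endothelin-1, had 71.2, 56.4 and 64.3 CPM in KO and 159, 127 and 214 CPM in control (log2 fold change −1.38, SE 0.34, adjusted p = 0.0208). Ramp2, the partner of Calcrl in the adrenomedullin receptor, had 798, 904 and 578 CPM in KO and 1199, 1632 and 1690 CPM in control (log2 fold change −0.99, SE 0.23, adjusted p = 0.0157). The groups did not overlap for any of the 3. The count of falls was 2 without control library 3 and 4 without KO library 2 or 3, and 2 tone genes rose without KO library 2. Without control library 3 or KO library 2 or 3 the call for Edn1 was lost (largest adjusted p 0.0916) and without control library 2 or 3 or KO library 3 that for Ramp2 (0.0664).

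Junction genes fell in part. Of 39, 6 fell and 1 rose, against 4.11% and 4.35% of all genes tested. The median was −0.35, and 3 fell without control library 3. Esam, an adhesion molecule of endothelial tight junctions, had 487, 410 and 342 CPM in KO and 821, 849 and 822 CPM in control (log2 fold change −1.01, SE 0.17, adjusted p = 0.00265). Cdh13 (T-cadherin), which lacks a cytoplasmic tail, had 32.3, 65.6 and 61.6 CPM in KO and 15.6, 15.6 and 22 CPM in control (log2 fold change 1.59, SE 0.25, adjusted p = 0.00157) and was the junction gene that rose. Without KO library 1, 2 junction genes rose.

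Anticoagulant and fibrinolytic genes moved both ways. Thbd (thrombomodulin), which turns thrombin into an anticoagulant, had 2024, 2029 and 2271 CPM in KO and 3520, 4251 and 4397 CPM in control (log2 fold change −0.94, SE 0.23, adjusted p = 0.0189). Plau (urokinase) had 107, 116 and 199 CPM in KO and 16.5, 27.7 and 20.6 CPM in control (adjusted p = 0.000304) and rose, with every KO library above every control. Pros1 (protein S), a cofactor of activated protein C, had 292, 279 and 256 CPM in KO and 158, 173 and 166 CPM in control (log2 fold change 0.74, SE 0.13, adjusted p = 0.00247). In all, 5 of 25 coagulation genes rose and 1, Thbd, fell (median 0.34), against 4.35% and 4.11% of all genes tested. Without control library 2 or 3 or KO library 1 or 2 the call for Thbd was lost (largest adjusted p 0.0732).

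MHC class II genes had the lowest median fold change of the endothelial lists. Of 11 members, all tested, 7 fell and 0 rose, with a median log2 fold change of −2.98, where 4.11% of all genes tested fell. They included Ciita, the transactivator that switches the class II genes on, the invariant chain Cd74, the chains H2-Aa, H2-Ab1 and H2-Eb1, and the peptide-loading genes H2-DMa and H2-DMb1. The count of rises was 0 by DESeq2 and 0 at an unadjusted p under 0.05.

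Ciita had 3.64, 2.88 and 2.82 CPM in KO and 54.9, 37.7 and 37.9 CPM in control (log2 fold change −3.80, SE 0.44, adjusted p = 0.000233). Cd74 had 24.3, 33.5 and 18 CPM in KO and 1156, 308 and 443 CPM in control (log2 fold change −4.65, SE 0.65, adjusted p = 0.000734). H2-Eb1 had 13.2, 13.1 and 8.41 CPM in KO and 344, 136 and 161 CPM in control (log2 fold change −4.21, SE 0.56, adjusted p = 0.00059). Control library 1 was the highest of all for each of these genes, and the lowest control stood at least 9-fold above the highest KO library. H2-Aa had 22.6, 22.1 and 21.3 CPM in KO and 396, 176 and 195 CPM in control (log2 fold change −3.54, SE 0.51, adjusted p = 0.000969). H2-Ab1 had 37, 43.3 and 36.5 CPM in KO and 489, 203 and 232 CPM in control (log2 fold change −2.98, SE 0.48, adjusted p = 0.00177). H2-DMa had 4.05, 4.3 and 3.32 CPM in KO and 62.7, 26.4 and 26.8 CPM in control (log2 fold change −3.31, SE 0.44, adjusted p = 0.000556). The KO libraries were close to each other for all 3 genes, while the controls spread more than 2-fold. H2 genes are close paralogs, and reads that they share may have been split between them.

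The bases upstream of the 4 class II genes that fell and had an entry are shown because these promoters share an X box and a Y box, through which CIITA acts. Capitals mark the Y box core CCAAT and ACNGATG, letters within the X box, on either strand, in the 250 bases before the start site (RefSeq, GRCm38.p6).

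H2-Eb1 (ENSMUSG00000060586, chr17:34305617-34305866, plus strand): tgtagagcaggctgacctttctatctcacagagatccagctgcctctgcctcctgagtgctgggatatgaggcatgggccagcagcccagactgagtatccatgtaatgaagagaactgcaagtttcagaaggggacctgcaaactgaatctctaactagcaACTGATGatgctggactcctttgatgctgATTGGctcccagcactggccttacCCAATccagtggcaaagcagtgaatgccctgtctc

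H2-DMb1 (ENSMUSG00000079547, chr17:34152941-34153190, plus strand): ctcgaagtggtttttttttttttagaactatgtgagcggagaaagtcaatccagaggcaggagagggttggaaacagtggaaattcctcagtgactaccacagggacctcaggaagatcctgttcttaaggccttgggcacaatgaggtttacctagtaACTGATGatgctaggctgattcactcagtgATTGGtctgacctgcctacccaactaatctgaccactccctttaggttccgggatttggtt

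H2-Aa (ENSMUSG00000036594, chr17:34287824-34288073, minus strand): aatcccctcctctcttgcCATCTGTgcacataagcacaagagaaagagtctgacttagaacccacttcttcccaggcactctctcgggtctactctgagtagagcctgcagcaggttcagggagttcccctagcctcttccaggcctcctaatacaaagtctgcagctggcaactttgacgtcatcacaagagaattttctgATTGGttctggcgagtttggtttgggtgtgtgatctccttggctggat

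H2-DMa (ENSMUSG00000037649, chr17:34122582-34122831, plus strand): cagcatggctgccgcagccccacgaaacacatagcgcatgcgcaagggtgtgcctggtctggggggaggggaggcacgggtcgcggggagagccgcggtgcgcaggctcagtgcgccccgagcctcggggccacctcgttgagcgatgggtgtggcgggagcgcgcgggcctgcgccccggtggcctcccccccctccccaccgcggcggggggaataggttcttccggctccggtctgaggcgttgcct

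ACNGATG began 88 bases before the start in H2-Eb1 and 91 bases before it in H2-DMb1, each followed by CCAAT on the other strand, at 59 and 61 bases. H2-Aa held CCAAT at 48 bases, also on the other strand, and ACNGATG far upstream of it, at 232 bases. The H2-DMa window held neither. Over the 13029 promoters, 6.16% held ACNGATG and 35.6% held CCAAT.

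Genes of MHC class I presentation and interferon-induced genes fell as well. Over all genes tested, 4.11% fell and 4.35% rose. Of 23 class I genes, 12 fell and 0 rose (median −0.64), and of 42 interferon-induced genes, 14 fell and 0 rose (median −0.76), or 9 without control library 1. In both lists the rises also numbered 0 by DESeq2 and 0 at an unadjusted p under 0.05. Nlrc5, the class I transactivator, had 51.6, 48.5 and 44.7 CPM in KO and 116, 106 and 86.3 CPM in control (log2 fold change −1.09, SE 0.18, adjusted p = 0.00211). Tap1, a peptide transporter subunit, had 100, 128 and 79.8 CPM in KO and 244, 202 and 200 CPM in control (log2 fold change −1.07, SE 0.17, adjusted p = 0.00164). H2-K1, a classical class I chain, had 2000, 2197 and 1754 CPM in KO and 3447, 2460 and 2912 CPM in control (log2 fold change −0.57, SE 0.15, adjusted p = 0.0369). The guanylate-binding proteins Gbp2 and Gbp5, which defend cells against intracellular microbes, were among those that fell. Gbp5 had 15.2, 8.87 and 9.32 CPM in KO and 65.2, 56.1 and 48 CPM in control (log2 fold change −2.34, SE 0.25, adjusted p = 0.00011). Gbp2 had 56.7, 40.8 and 44.8 CPM in KO and 216, 161 and 155 CPM in control (log2 fold change −1.90, SE 0.22, adjusted p = 0.000185). Igtp, an immunity-related GTPase, had 28.8, 31.4 and 25 CPM in KO and 91.3, 84.7 and 65.5 CPM in control (log2 fold change −1.50, SE 0.20, adjusted p = 0.00059). Control library 1 was the highest of the 6 libraries for Gbp2, Gbp5 and Igtp. Tnfsf10 (TRAIL), a death ligand that interferon induces, had 118, 94 and 133 CPM in KO and 536, 445 and 529 CPM in control (log2 fold change −2.13, SE 0.25, adjusted p = 0.000264). Without control library 1 or 3 or KO library 1 or 3 the call for H2-K1 was lost (largest adjusted p 0.145).

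Transcripts of alveolar type 2 epithelium, which makes surfactant and can itself express class II, moved with these genes. Of 10 type 2 genes, 9 fell, against 4.11% of all genes tested. Their summed level was 326 to 588 CPM in KO and 2480 to 3030 CPM in control. Sftpc (surfactant protein C) had 175, 116 and 62.6 CPM in KO and 993, 1183 and 1050 CPM in control (log2 fold change −3.19, SE 0.55, adjusted p = 0.0027), and Sftpb had 65.1, 43.8 and 34.7 CPM in KO and 306, 425 and 366 CPM in control (log2 fold change −2.93, SE 0.40, adjusted p = 0.000713). Abca3, a lipid transporter of lamellar bodies, had 127, 98.8 and 110 CPM in KO and 133, 168 and 173 CPM in control. The summed class II level was 103 to 132 CPM in KO and 928 to 2640 CPM in control. Sftpc differed little between the controls, where Cd74 was more than 2-fold higher in library 1 than in the other two. Markers of B cells were low in both groups. Cd79a and Ms4a1 stayed under 3 CPM in all 6 libraries, the summed B cell list was 16.7 to 18.7 CPM in KO and 18.8 to 22.2 CPM in control. Dendritic cell genes summed to 209 to 244 CPM in KO and 260 to 311 CPM in control, lower in every KO library. Of their defining markers, Clec9a had 107, 126 and 98.6 CPM in KO and 116, 124 and 138 CPM in control with overlapping groups (adjusted p = 0.6), while Flt3 and Xcr1 were at or near 0. Of 8 tested dendritic genes, 0 fell by edgeR, 1 by DESeq2 and 2 at an unadjusted p under 0.05. Rises among the same 8 numbered 0 by edgeR, 1 by DESeq2 and 1 at an unadjusted p under 0.05. The part of type 2 and dendritic transcripts in the fall of the class II genes was not tested.

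**Figure D3:**
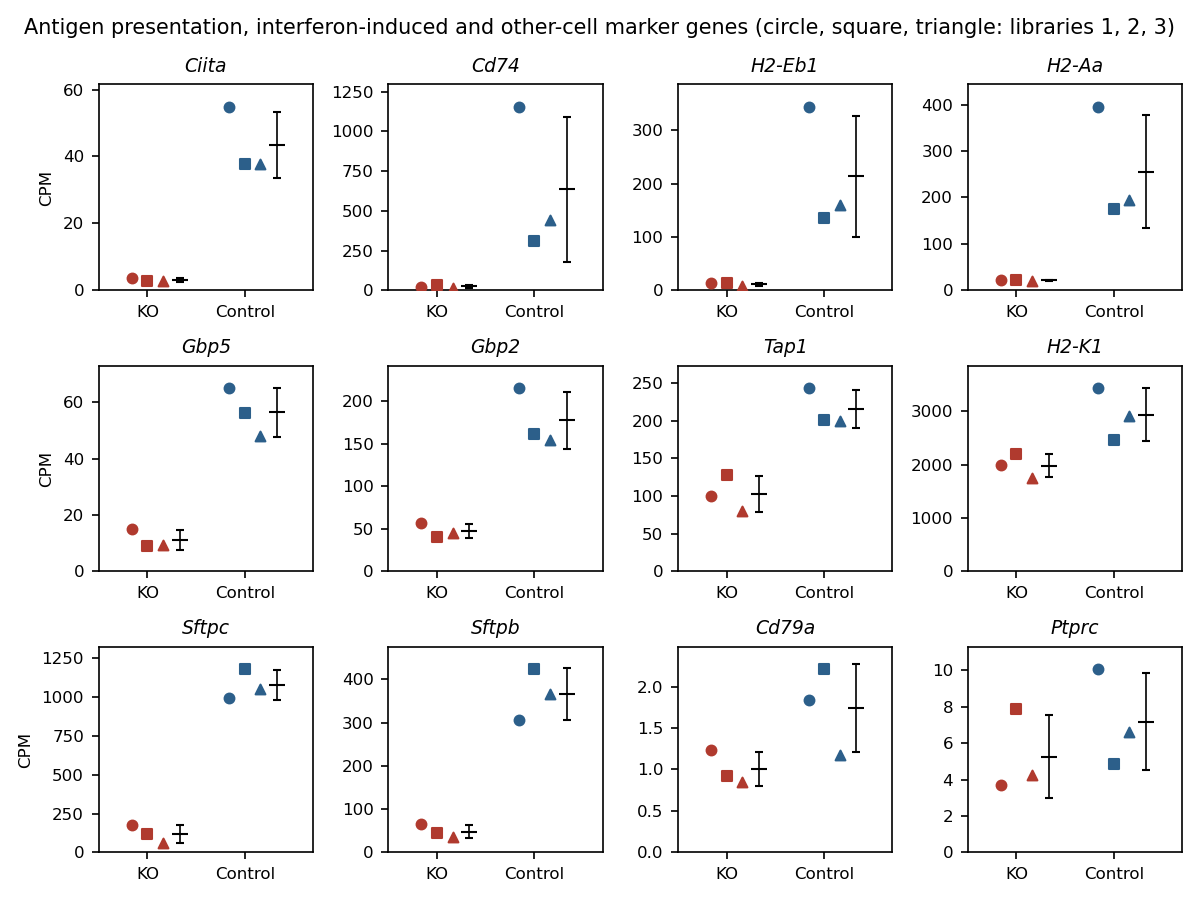
CPM of 12 genes in each KO (red) and control (blue) library, with the mean ± SD (n = 3 a group) beside the points. The antigen presentation and interferon-induced genes in the first 8 panels and the type 2 genes Sftpc and Sftpb lie lower in every KO library, while the B cell marker Cd79a and the leukocyte marker Ptprc overlap and stay under 11 CPM.

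Several of the other large falls were genes with known expression in alveolar epithelium. Lyz1 (a lysozyme) had 2.52, 1.9 and 0.47 CPM in KO and 18.9, 13.9 and 25.7 CPM in control (log2 fold change −3.57, SE 0.61, adjusted p = 0.00272). Cxcl15 (lungkine), a chemokine of lung epithelium, had 17.7, 9.82 and 6.62 CPM in KO and 114, 71.1 and 82.2 CPM in control (log2 fold change −2.97, SE 0.48, adjusted p = 0.00179). Chil1, a chitinase-like protein, had 14.2, 6.26 and 2.59 CPM in KO and 68.5, 56.8 and 51.8 CPM in control (log2 fold change −2.94, SE 0.57, adjusted p = 0.00602). The groups did not overlap, and KO library 3 was the lowest of all for each of them, as for Sftpc. Hc (complement C5), Lgi3 and Irx1, a homeobox gene, also fell, with log2 fold changes of −3.79, −3.14 and −2.92. Of 10 type 1 genes, 3 fell, against 4.11% of all genes tested, and 1 fell without control library 2 or KO library 2. Their summed level was 802 to 985 CPM in KO and 1070 to 1630 CPM in control. The basement membrane genes Lama3 (−1.90) and Lamb3 (−2.38), laminin chains of epithelia, fell as well. The part of epithelial transcripts in these falls was not tested.

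Among the remaining largest falls, Hpcal4, a neuronal calcium sensor, had 1.26, 1.29 and 0.853 CPM in KO and 21.7, 14 and 23.8 CPM in control (log2 fold change −4.12, SE 0.64, adjusted p = 0.00153). Ackr4, a scavenging receptor for the chemokines CCL19 and CCL21, had 1.16, 3.53 and 2.32 CPM in KO and 53.7, 23.2 and 39 CPM in control (log2 fold change −4.06, SE 0.55, adjusted p = 0.000678). The genes that follow fell too but lay outside the 15 largest falls. Col15a1, a collagen of vascular basement membrane, had 10.8, 7.76 and 15.9 CPM in KO and 84.2, 33.3 and 54.5 CPM in control (log2 fold change −2.32, SE 0.37, adjusted p = 0.00161). Mmp15, a membrane-bound metalloproteinase, had 41.1, 70.7 and 34.8 CPM in KO and 286, 135 and 194 CPM in control (log2 fold change −2.07, SE 0.39, adjusted p = 0.00532), and control library 1 was the highest of the 6 for Ackr4, Col15a1 and Mmp15. Cxcr4, the CXCL12 receptor, had 5.85, 6.81 and 5.7 CPM in KO and 19.1, 20.1 and 31.2 CPM in control (log2 fold change −1.94, SE 0.39, adjusted p = 0.00791), and Scn3b, a sodium channel subunit, had 53.4, 87.7 and 46.9 CPM in KO and 280, 224 and 257 CPM in control (log2 fold change −2.02, SE 0.35, adjusted p = 0.00284). The groups did not overlap for any of these.

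Channel and transporter genes moved both ways. Of 46 tested, 5 rose and 6 fell, against 4.35% and 4.11% of all genes tested. The median log2 fold change was −0.14, and 3 fell without control library 2 or 3. Kcnj1 (ROMK, a potassium channel best known from the kidney), which lies next to Fli1 on chromosome 9, had 19.9, 12.4 and 16.5 CPM in KO and 0.0727, 0.111 and 0 CPM in control (log2 fold change 7.96, SE 0.45, adjusted p = 6.9e-07). Kcnj5, a neighbouring potassium channel gene on the same chromosome, had 12.4, 8.32 and 8.67 CPM in KO and 0.145, 0.166 and 0.195 CPM in control (log2 fold change 5.83, SE 0.41, adjusted p = 4.7e-06). Controls had almost no reads of either gene. Clca3a1, a calcium-activated chloride channel regulator, had 516, 491 and 1008 CPM in KO and 11.6, 18.5 and 18.2 CPM in control (log2 fold change 5.38, SE 0.40, adjusted p = 7.52e-06). Slc12a2 (NKCC1), which carries sodium, potassium and chloride into cells, had 764, 1186 and 509 CPM in KO and 40.6, 44.6 and 44.9 CPM in control (log2 fold change 4.24, SE 0.33, adjusted p = 9.45e-06). Piezo2, a mechanically gated channel, had 663, 778 and 676 CPM in KO and 126, 194 and 176 CPM in control (log2 fold change 2.09, SE 0.42, adjusted p = 0.00772). Scn7a, a sodium channel, had 2724, 6208 and 3236 CPM in KO and 1209, 1058 and 1244 CPM in control (log2 fold change 1.79, SE 0.28, adjusted p = 0.00148). All KO libraries exceeded all controls for each of these. Slc12a2 and Scn7a are not on the list of 46. The falls included Kcnq1, a potassium channel, with 29, 28.3 and 14.9 CPM in KO and 53.1, 51.4 and 51.1 CPM in control (log2 fold change −1.11, SE 0.25, adjusted p = 0.0144) and no overlap between the groups.

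Axon guidance genes moved both ways. Of 46 tested, 7 rose and 8 fell, against 4.35% and 4.11% of all genes tested. The median log2 fold change was −0.53, and the summed level was 7760 to 8860 CPM in KO and 11100 to 11800 CPM in control. The falls numbered 3 without control library 2 or 3 or KO library 2 and 5 without KO library 1. Besides Efna1 and Sema3c they included Efnb1 (ephrin-B1), with 431, 413 and 292 CPM in KO and 688, 735 and 648 CPM in control (log2 fold change −0.87, SE 0.19, adjusted p = 0.0119), and Robo4, an endothelial receptor of the roundabout family, with 264, 167 and 256 CPM in KO and 493, 481 and 473 CPM in control (log2 fold change −1.07, SE 0.26, adjusted p = 0.0188). The KO libraries of the genes with the largest rises differed from each other. Adam23, a catalytically inactive metalloproteinase of neurons, had 295, 258 and 48.1 CPM in KO and 8.72, 5.49 and 11.1 CPM in control (log2 fold change 4.57, SE 0.55, adjusted p = 0.00029). Flrt3, a ligand of UNC5 receptors, had 120, 106 and 12.1 CPM in KO and 3.03, 4.49 and 2.96 CPM in control (log2 fold change 4.51, SE 0.81, adjusted p = 0.00353). Unc5c, a netrin receptor, had 16.4, 20.5 and 4.73 CPM in KO and 0.702, 0.748 and 0.725 CPM in control (log2 fold change 4.25, SE 0.67, adjusted p = 0.00153). Outside that list, Ache (acetylcholinesterase) had 25.7, 36.5 and 5.32 CPM in KO and 0.654, 0.859 and 0.558 CPM in control (log2 fold change 5.02, SE 0.57, adjusted p = 0.000171). KO library 3 was the lowest KO library for all 4 genes and still lay above every control. Tnnt2 (cardiac troponin T) had 38.2, 154 and 11.7 CPM in KO and 0.484, 1.05 and 1.25 CPM in control (log2 fold change 6.20, SE 0.89, adjusted p = 0.000901), with KO library 2 the highest and KO library 3 the lowest of the KO group. Without control library 1, 2 or 3 or KO library 2 the call for Robo4 was lost (largest adjusted p 0.0741). Outside the list, Mchr1, the melanin-concentrating hormone receptor, had 38.5, 23 and 45.9 CPM in KO and 0.848, 2.77 and 2.37 CPM in control (log2 fold change 4.17, SE 0.65, adjusted p = 0.00153), and Lancl3 had 77.9, 37.5 and 16.5 CPM in KO and 0.339, 1.08 and 0.474 CPM in control (log2 fold change 6.13, SE 0.58, adjusted p = 6.4e-05).

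A part of the matrix and mesenchymal genes rose, where 4.35% of all genes tested rose and 4.11% fell. Of 36 mesenchymal transition genes, 10 rose and 0 fell (median 0.32), and of 51 matrix genes, 9 rose and 5 fell (median −0.07), or 5 rose without control library 2 and 4 without control library 3. Mesenchymal falls numbered 0 by DESeq2, 1 at an unadjusted p under 0.05 and 1 without KO library 3. Tgfbi, a matrix protein that TGF-beta induces, had 293, 363 and 117 CPM in KO and 19.9, 13.9 and 17.7 CPM in control (log2 fold change 3.91, SE 0.46, adjusted p = 0.000239). Lamc1, the laminin gamma 1 chain of vascular basement membrane, had 573, 555 and 629 CPM in KO and 138, 207 and 185 CPM in control (log2 fold change 1.73, SE 0.19, adjusted p = 0.000151). Lama1 had 183, 55 and 74.2 CPM in KO and 18.9, 9.37 and 12.1 CPM in control (log2 fold change 2.95, SE 0.47, adjusted p = 0.00165). KO library 1 was the highest of the 6 libraries for Lama1, and the groups did not overlap for these 3 genes. Snai1, a repressor of epithelial genes, had 32.7, 14.6 and 46.4 CPM in KO and 6.86, 4.79 and 6 CPM in control (log2 fold change 2.41, SE 0.38, adjusted p = 0.00166). Itgb3 (integrin beta 3) had 115, 56 and 304 CPM in KO and 20.1, 19.8 and 22.6 CPM in control (log2 fold change 2.92, SE 0.45, adjusted p = 0.00139), with KO library 3 more than 2-fold above the others. Cald1 (caldesmon) had 260, 363 and 237 CPM in KO and 113, 104 and 111 CPM in control (log2 fold change 1.39, SE 0.19, adjusted p = 0.000619), and Tpm1 (tropomyosin 1) had 241, 272 and 281 CPM in KO and 146, 124 and 133 CPM in control (log2 fold change 0.98, SE 0.12, adjusted p = 0.000256). The type IV collagen genes Col4a1 and Col4a2, the backbone of basement membranes, were among the called genes with the most reads, with 2973, 3228 and 2843 CPM in KO and 1699, 1426 and 1479 CPM in control for Col4a1 and 1929, 2146 and 2091 CPM in KO and 1006, 882 and 936 CPM in control for Col4a2 (log2 fold change 1.13, SE 0.25, adjusted p = 0.0139). Acta2 (smooth muscle actin), a usual sign of a contractile mesenchymal cell, had 6.94, 14.8 and 14.8 CPM in KO and 23.9, 23.5 and 27.8 CPM in control. It did not pass (adjusted p = 0.454), though it lay lower in every KO library. Cdh2 and Tagln, at under 3 CPM, overlapped. Vim (vimentin) had 1557, 1948 and 1034 CPM in KO and 1495, 1381 and 1553 CPM in control (adjusted p = 0.954). Summed fibroblast markers were 1180 to 2050 CPM in KO and 1420 to 1890 CPM in control, and summed mural markers 184 to 320 CPM in KO and 156 to 190 CPM in control, with Rgs5 of pericytes at 94.1, 86.8 and 219 CPM in KO and 20.3, 19.6 and 14.9 CPM in control. Rgs5 was the 1 mural gene of 13 that rose, against 4.35% of all genes tested. The other mural genes did not share its direction, since 8 lay lower in every KO library, among them Pdgfrb with 8.42, 8.87 and 11 CPM in KO and 21.5, 15.5 and 13.2 CPM in control, and the median log2 fold change of the list was −0.83. None of the 13 fell by edgeR, against 1 by DESeq2 and 3 at an unadjusted p under 0.05. Without any 1 library the call for Col4a1 was lost (largest adjusted p 0.129), without control library 2 or 3 that for Col4a2 (0.0571) and without any 1 library that for Rgs5 (0.143).

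Of 39 protease and inhibitor genes, 7 rose and 3 fell, against 4.35% and 4.11% of all genes tested. Mmp14, a membrane-bound collagenase, had 110, 149 and 122 CPM in KO and 64.1, 47.4 and 58.1 CPM in control (log2 fold change 1.17, SE 0.15, adjusted p = 0.000367). Adamts7 had 9.51, 12.9 and 19.2 CPM in KO and 3.83, 2.3 and 3.07 CPM in control (log2 fold change 2.17, SE 0.24, adjusted p = 0.00017), and Timp1, a metalloproteinase inhibitor, had 5.65, 6.93 and 11.3 CPM in KO and 2.93, 2.33 and 1.87 CPM in control (log2 fold change 1.74, SE 0.35, adjusted p = 0.00765). The groups did not overlap for any of the 3. Without control library 2 or 3 or KO library 2, 1 protease gene fell.

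Of 37 endothelial transcription factors, 8 rose and 3 fell, against 4.35% and 4.11% of all genes tested, with a median of 0.17. Hhex, a homeobox factor of haemato-endothelial cells, had 175, 148 and 217 CPM in KO and 50.4, 53.1 and 56.7 CPM in control (log2 fold change 1.75, SE 0.18, adjusted p = 0.000105). Lyl1, a relative of TAL1, had 50.4, 83.6 and 82.5 CPM in KO and 15.2, 26.4 and 28.2 CPM in control (log2 fold change 1.63, SE 0.26, adjusted p = 0.00164). Sox18, a factor of arterial and lymphatic development, had 157, 119 and 152 CPM in KO and 275, 384 and 495 CPM in control (log2 fold change −1.43, SE 0.25, adjusted p = 0.00284). The rises and the fall showed no overlap between the groups. Foxo1, which keeps endothelium quiescent, had 92.6, 52.7 and 68.1 CPM in KO and 121, 128 and 130 CPM in control (log2 fold change −0.83, SE 0.16, adjusted p = 0.00576), and Foxo3 had 191, 157 and 146 CPM in KO and 70.8, 111 and 91.4 CPM in control (log2 fold change 0.86, SE 0.16, adjusted p = 0.00542). The flow-induced factors Klf2 and Klf4 did not pass (adjusted p = 0.272 and 0.255), though both lay lower in every KO library. Klf2 had 1481, 2235 and 1865 CPM in KO and 3126, 2918 and 2350 CPM in control. Klf4 had 1209, 1240 and 922 CPM in KO and 2030, 2206 and 1681 CPM in control. Rises numbered 5 without control library 1 or 2 and 4 without control library 3 or KO library 3.

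Of 36 hypoxia and glycolysis genes, 6 rose and 3 fell, against 4.35% and 4.11% of all genes tested. Ddit4 (REDD1), an inhibitor of mTORC1 induced by low oxygen and other stress, had 454, 382 and 370 CPM in KO and 138, 130 and 121 CPM in control (log2 fold change 1.64, SE 0.20, adjusted p = 0.00029). Higd1a had 34.2, 48.9 and 34.2 CPM in KO and 22.6, 16 and 18.7 CPM in control (log2 fold change 1.03, SE 0.18, adjusted p = 0.00331), while Slc2a1 (GLUT1), with 20.6, 20.7 and 28.1 CPM in KO and 26.3, 19.7 and 25.1 CPM in control, overlapped (adjusted p = 0.979). The falls numbered 0 without control library 1 or 3 or KO library 3 and 1 without control library 2. Phlda3, a p53 target that restrains AKT, had 145, 320 and 126 CPM in KO and 59.3, 66.1 and 70.7 CPM in control (log2 fold change 1.59, SE 0.28, adjusted p = 0.00343). Of 48 cell cycle genes, Mcm3 fell and none rose, and Mki67 had 11.9, 20.3 and 4.62 CPM in KO and 13.5, 2.69 and 9.59 CPM in control with overlapping groups. Of 38 immediate early genes, Dusp6 fell and none rose. Over all genes tested, 4.11% fell and 4.35% rose. Rises in the cell cycle and immediate early lists numbered 0 and 0 by DESeq2, and 1 and 1 at an unadjusted p under 0.05.

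Ccn2 (CTGF), a matricellular target of YAP, had 311, 223 and 664 CPM in KO and 86.9, 107 and 95.8 CPM in control (log2 fold change 2.05, SE 0.40, adjusted p = 0.00651), with KO library 3 the highest. Il6st (gp130), the shared receptor of the IL-6 family, had 1662, 1198 and 2144 CPM in KO and 812, 843 and 790 CPM in control (log2 fold change 1.03, SE 0.20, adjusted p = 0.00569). Nfkb1 had 295, 341 and 263 CPM in KO and 211, 198 and 204 CPM in control (log2 fold change 0.55, SE 0.12, adjusted p = 0.00967), and Csf1, the macrophage growth factor, had 351, 282 and 392 CPM in KO and 168, 171 and 199 CPM in control (log2 fold change 0.93, SE 0.20, adjusted p = 0.0119). These were among 5 of 43 tested chemokine and adhesion genes that rose, while Ackr4 fell, against 4.35% and 4.11% of all genes tested. The rises numbered 3 without control library 2 or 3, and 2 fell without KO library 2. Without control library 1 the call for Csf1 was lost (largest adjusted p 0.0521).

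**Figure D4:**
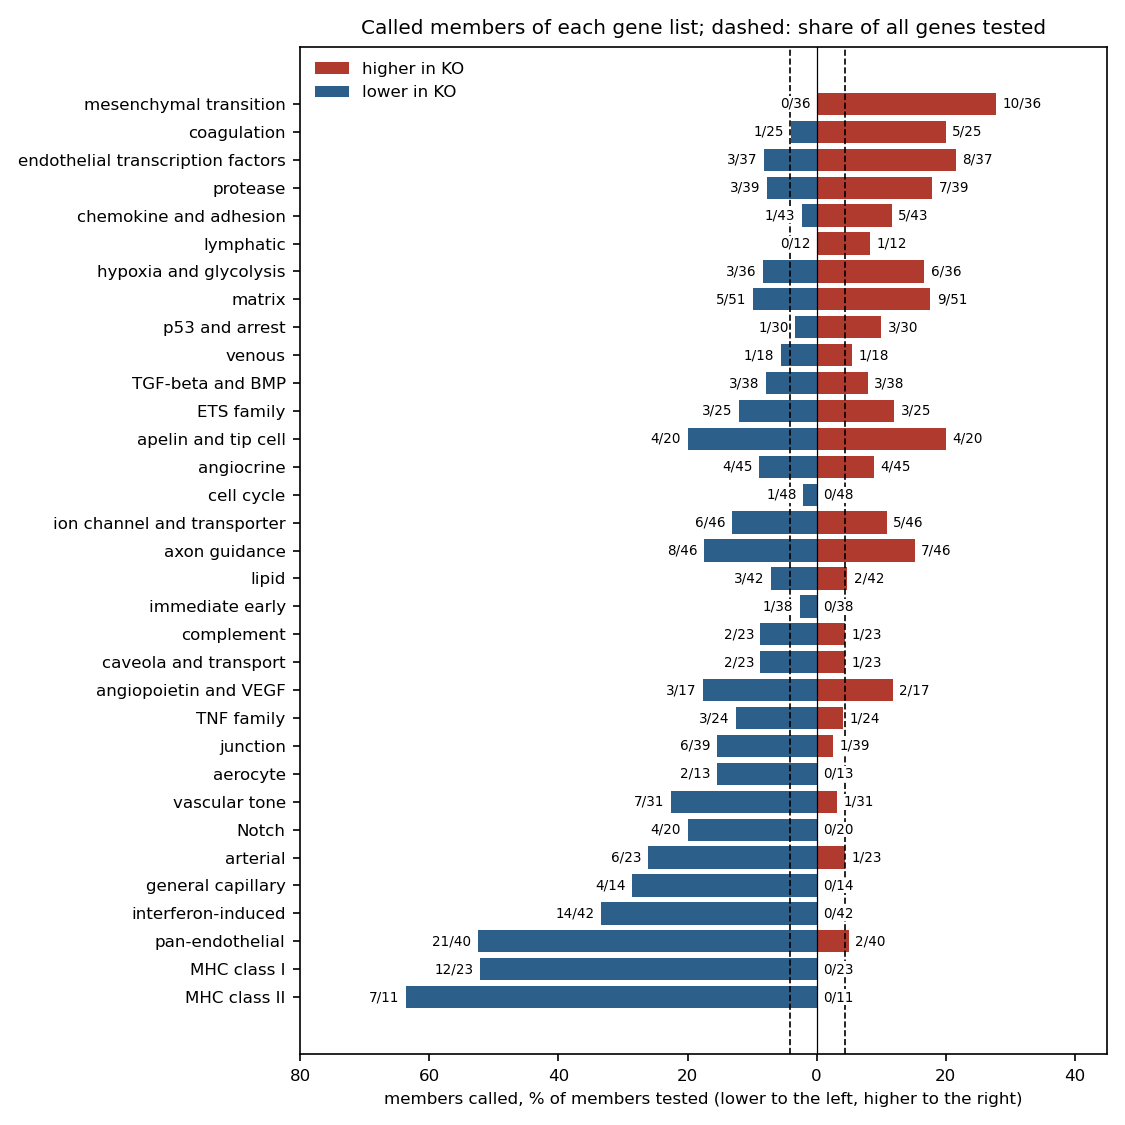
Bars give the share of tested members called lower (left) and higher (right) in KO for each endothelial gene list, with counts beside them, and dashed lines mark 4.11% and 4.35%, the shares over all genes tested. MHC class II (7 of 11), MHC class I (12 of 23) and pan-endothelial genes (21 of 40) lead the falls, and mesenchymal transition genes (10 of 36) lead the rises.

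Summed red cell and neutrophil transcripts were higher in every KO library. Red cell genes summed to 73.9 to 481 CPM in KO and 31.2 to 41.9 CPM in control, with Hbb-bs (beta globin) at 39.9, 55.4 and 247 CPM in KO and 16.2, 22.9 and 19.6 CPM in control. Of 7 red cell genes, 0 passed the test by edgeR, 4 were higher by DESeq2 and 5 at an unadjusted p under 0.05, and 1 rose by edgeR without KO library 1. Neutrophil genes summed to 18.4 to 49.4 CPM in KO and 1.42 to 7.17 CPM in control, and S100a8 had 4.73, 3.04 and 10.7 CPM in KO and 1.77, 0.166 and 0.446 CPM in control. KO library 3 was the highest for both. Of 14 platelet genes, 4 rose, against 4.35% of all genes tested. Itga2b, an integrin chain of platelets, had 36, 43.4 and 44.1 CPM in KO and 8.53, 10.6 and 10.5 CPM in control (log2 fold change 2.06, SE 0.21, adjusted p = 0.000105). Ppbp (platelet basic protein) had 12, 14.5 and 19.2 CPM in KO and 10.6, 8.37 and 7.05 CPM in control. It did not pass (adjusted p = 0.11), though it lay higher in every KO library. The platelet count was 1 without control library 2 or 3 or KO library 3 and 2 without control library 1 or KO library 2. Platelets also carry Itgb3, which was likewise highest in KO library 3, and the part of blood cell transcripts in its rise was not tested. Ngp, the neutrophil gene that rose, had no read in the controls. Without any 1 library the call for Ngp was lost (largest adjusted p 0.102).

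The knockout effect in lung was set against those in liver and heart by testing the difference of the log2 fold changes. It differed from liver for 1219 genes (6.2%), 3.13% of genes being more positive and 3.08% more negative in lung, and from heart for 1257 (6.4%), 2.57% and 3.83%. Over both tests, 117 genes (0.596%) were more positive and 131 (0.667%) more negative in lung in both tests. KO against control in liver called 19.4% and in heart 19.3% of the genes. The lung libraries enter both tests. The differences numbered 807 against liver without control library 3, and 791 and 766 against heart without control library 1 and 3.

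Angpt2 changed by 3.65 in lung, 0.34 in liver and 0.09 in heart (difference 3.31, SE 0.46, adjusted p = 0.00093 against liver, and 3.57, SE 0.52, adjusted p = 0.0019 against heart). Adam23 changed by 4.57 in lung, −0.29 in liver and −1.15 in heart (difference 4.86, SE 0.71, adjusted p = 0.0012 against liver, and 5.72, SE 0.82, adjusted p = 0.00182 against heart). Slc6a4, the serotonin transporter with which lung endothelium clears serotonin, had 25.3, 32.5 and 15.3 CPM in KO and 1.89, 2.74 and 2.15 CPM in control (log2 fold change 3.43, SE 0.40, adjusted p = 0.000228), and changed by 0.23 in liver and 0.62 in heart (difference 3.20, SE 0.60, adjusted p = 0.00592 against liver, and 2.81, SE 0.62, adjusted p = 0.018 against heart). Cysltr2, a receptor for cysteinyl leukotrienes, had 16.6, 14.9 and 12.9 CPM in KO and 3.61, 2.44 and 2.76 CPM in control in lung and changed by 2.33 there (difference 3.53, SE 0.52, adjusted p = 0.00124 against liver, and 3.15, SE 0.87, adjusted p = 0.0464 against heart). For Emcn the lung change of 1.33 likewise exceeded the −0.27 of liver and the −0.44 of heart (difference 1.60, SE 0.25, adjusted p = 0.00179 against liver, and 1.76, SE 0.28, adjusted p = 0.00268 against heart). In all 5 genes lung alone of the 3 tissues had a positive change past the threshold. Cysltr2 fell in liver (log2 fold change −1.20, adjusted p = 0.0309). In heart it changed by −0.82, at means of 0.0862 CPM in KO and 0.158 CPM in control. Slc6a4 was also low outside lung, with means of 0.474 CPM in KO and 0.402 CPM in control in liver. In heart its means were 1.31 CPM in KO and 0.85 CPM in control.

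Hgf (hepatocyte growth factor) went the other way, with 9.83, 3.1 and 7.91 CPM in KO and 33.3, 31 and 32.1 CPM in control in lung (log2 fold change −2.20, SE 0.37, adjusted p = 0.00226) and changes of 2.69 in liver and 1.76 in heart (difference −4.89, SE 0.52, adjusted p = 0.000117 against liver, and −3.97, SE 0.66, adjusted p = 0.00376 against heart). Itga2 (integrin alpha 2) had 103, 95.9 and 83.1 CPM in KO and 126, 122 and 122 CPM in control in lung, where it did not pass (adjusted p = 0.238), and rose by 4.92 in liver and 3.29 in heart on the log2 scale (difference −5.31, SE 0.30, adjusted p = 3.14e-07 against liver, and −3.68, SE 0.31, adjusted p = 8.28e-05 against heart). Kif26b, a kinesin, had 6.7, 14.6 and 5.26 CPM in KO and 17.4, 26.8 and 27.5 CPM in control in lung, did not pass there (adjusted p = 0.15) and rose in the other two tissues. Its means were 1.94 CPM in KO and 0.229 CPM in control in liver, and 8.43 and 0.918 CPM in heart. Hgf was likewise low in heart, with means of 2.56 CPM in KO and 0.757 CPM in control. Sftpd (surfactant protein D) and Chil1 fell in lung and rose in heart, where their means were 3.25 CPM in KO and 0.0277 CPM in control and 5.96 CPM in KO and 0.169 CPM in control. These are transcripts that move with the type 2 markers in lung, and their source in heart was not tested.

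**Figure D5:**
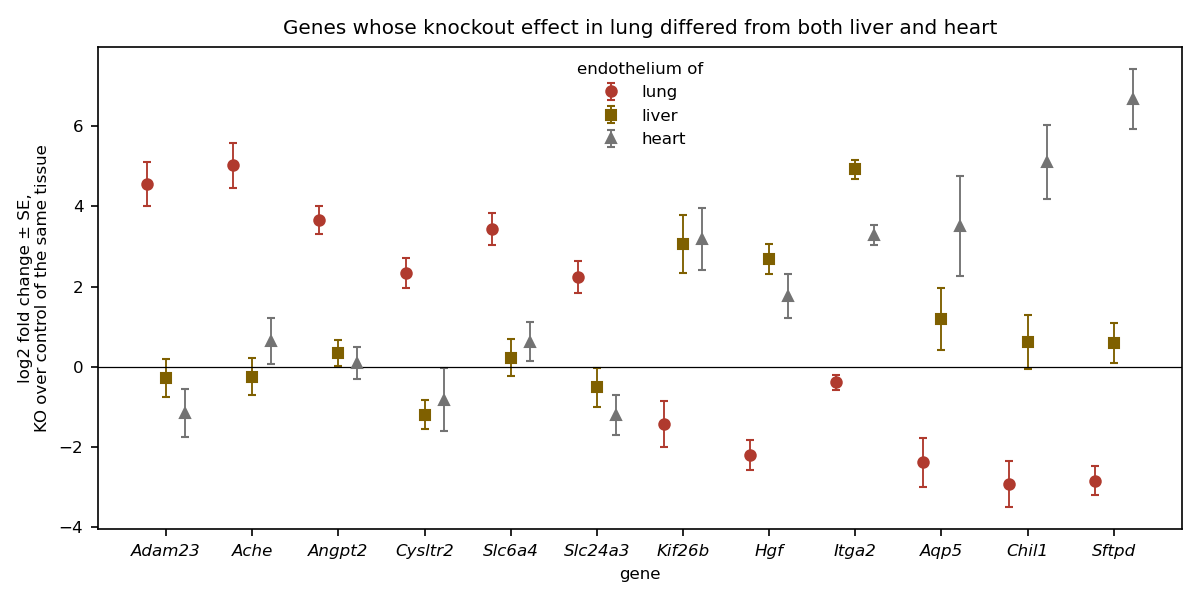
Points give the log2 fold change of KO over control ± SE in lung (circles), liver (squares) and heart (triangles) for 12 genes, ranked by the smaller of both differences among the 65 and 39 genes that passed both tests, lay apart in the lung groups and had a mean of at least 10 CPM in 1 of them. The first 6 lie above 0 in lung and below 1 elsewhere, and the last 6 lie below 0 in lung and above 0 in liver and heart.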

How the data were processed

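The authors deposited raw gene-level counts of poly(A) RNA reads for each library. Per the submitters' processing notes, the tools were FastQC 0.11.5 and STAR 2.7.6a, on the GRCm38 build. The sources used here do not give the counting program or its strand setting, and 2 TruSeq kits, 1 stranded, were used without a record per library, so genes that overlap on opposite strands are uncertain. Of 52636 genes, 19646 passed edgeR's filterByExpr (minimum count 10, total 15). All 16 libraries entered 1 edgeR 4.0.16 quasi-likelihood fit with a mean per group and TMM factors, and p was adjusted by Benjamini-Hochberg over all genes tested within each comparison (R 4.3.3). CPM use effective library sizes, and SE is the log2 fold change over the root of F. The members and gene lists were chosen with earlier results of these data known. Of 1023 listed genes, 998 were tested. Named genes were the targeted genes, called ETS members, a panel of 12, the 15 largest rises and falls (at least 10 CPM in the higher group, groups without overlap), the 8 called genes each way with the highest CPM, up to 6 called members each way per list, cell type markers, and up to 6 tissue differences each way. Genes that did not pass and lie outside this rule, such as Ets1 or Klf2, were named after their values were seen. Some genes the rule names are not reported here. Promoters came from RefSeq (GRCm38.p6) by symbol. Alternatives were RLE factors, other filters, DESeq2 1.42.0, a replicate block, a sex term, the lung libraries alone and leaving out libraries.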

Additional observations from a re-analysis of the deposited data

Results flagged for a closer look

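Differences between the knockout effect in lung and that in the other tissues were tested within the same fit. They numbered 1219 genes against liver and 1257 against heart. Differences of log2 fold change (lung minus liver, then lung minus heart) were 5.27 and 4.38 for Ache, 4.86 and 5.72 for Adam23, and 3.31 and 3.57 for Angpt2. They were 3.53 and 3.15 for Cysltr2, 3.2 and 2.81 for Slc6a4, and 2.76 and 3.45 for Slc24a3. Slc6a4 and Slc24a3 averaged at most 2.92 CPM in the liver and heart groups. Negative differences were −4.5 and −4.62 for Kif26b, −4.89 and −3.97 for Hgf, and −5.31 and −3.68 for Itga2. For transcripts of alveolar epithelium they were −3.57 and −5.9 for Aqp5, −3.56 and −8.04 for Chil1, and −3.44 and −9.52 for Sftpd, where levels in the heart groups averaged at most 5.96 CPM in KO and 0.169 CPM in control. Heart had 2 libraries a group.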

How the results depend on the processing

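Of the 1662 genes called in lung, 854 higher and 808 lower, leaving out 1 lung library at a time gave 917 to 1479, with 473 to 777 higher and 444 to 702 lower, and 54.2% to 74.2% of the original calls were kept. Without both lung libraries that expressed Y-linked genes the counts were 704, 371 and 333, and with DESeq2 2514, 1296 and 1218. RLE factors (1671), no filter (1650), a stricter filter (1870), a sex term (1701) and the 6 lung libraries alone (1761) stayed within 1.5 times. Differences from liver (1219, 614 positive and 605 negative) became 714, 351 and 363 without the Y-linked libraries, 2072, 1095 and 977 with DESeq2, and 807 to 1135, 396 to 563 and 411 to 572 with 1 library left out. Differences from heart (1257, 505 and 752) became 2154, 933 and 1221 with DESeq2 and 766 to 1405, 275 to 584 and 486 to 821 with 1 library left out. The cause of these shifts was not tested, though leaving out libraries also lowers their number. The replicate numbers are not stated to pair animals, and same-numbered libraries did not deviate together (r = −0.07, −0.08 and 0.03). With the number as a replicate block 1360 lung genes passed, and differences from liver and heart numbered 989 and 926. Of 200 named genes that passed, 126 kept the call with any 1 lung library left out and 104 under every alternative, and 0 changed direction. Of the genes that did not pass, Kdr ran from −0.17 to 0.11 with 1 lung library left out (0.11 without control library 2, 0.0169 without KO library 3) and was 0.0375 without the Y-linked libraries. Vcam1 ran from −0.24 (without KO library 3) to 0.571. With 3 libraries a group, small changes in variable genes were not detectable.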
